A study of Mus musculus with 18 samples.

Results

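Akr1c12, Akr1c13 and Akr1e1 are 3 aldo-keto reductase genes that lie in a single cluster of such genes on mouse chromosome 13. They were chosen by symbol, as 3 of the 12960 genes in the deposited expression table, with their levels in G9a knockout cells already known. The values that chose them are therefore given as a description, without a test. All 3 reached a mean of 1 RPKM in at least 1 group and were among the 12782 genes that passed that filter. RPKM is a read count divided by gene length and by the size of the library, and the values here were further scaled between libraries.

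Aldo-keto reductases are soluble enzymes that use NADPH to reduce aldehydes and ketones to alcohols. The AKR1C subfamily acts on steroids, prostaglandins and reactive carbonyls and is best known from liver, gut and reproductive tissues. Akr1e1 encodes a more distant relative that reduces anhydrofructose, a sugar derived from glycogen. G9a, encoded by Ehmt2, is an enzyme that methylates histone H3 at lysine 9, adding 1 or 2 methyl groups, and this modification marks repressed genes.

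The study compared B lineage cells from the spleen of control mice (Ctrl), heterozygous for a B lineage Cre allele, with those of knockout mice (KO), which were G9afl/fl and carried the same Cre allele. Both genotypes thus carried 1 copy of Cre, which drives recombination in B lineage cells, and the controls differ from the knockout by the floxed G9a alleles. The 18 libraries formed 6 groups of 3. Naive B cells were depleted of CD43-positive cells with beads and came from mice that received no lipopolysaccharide (LPS). Activated B cells, sorted as B220+GL7+, and plasma cells, sorted as CD138+ with low or intermediate B220, came from mice 72 h after 50 µg of LPS in 100 µl entered the tail vein. Both sorts also excluded dead cells and cells bearing F4/80, Cd11b or Thy1.2. Naive and activated cells differ at once in cell type, LPS and isolation, which cannot be told apart. Each library came from 1000 cells. Ages were not given in the sources used here, and nothing states that the replicates of a group were separate animals, so the p-values rest on a spread among libraries that may be technical.

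Estimated depth was lowest in naive libraries, at 1630000 to 4060000 reads, against 2680000 to 10840000 in activated and 5140000 to 6970000 in plasma cell libraries. Ehmt2 itself was at 22.1 ± 3.12 (SD, n = 3) scaled RPKM in activated Ctrl and 22.3 ± 0.810 in activated KO cells, at 17.1 ± 0.865 and 13.7 ± 1.27 in plasma cells, and at 19.2 ± 7.25 and 16.9 ± 5.35 in naive cells. These values cover the whole gene and do not show whether its floxed part was deleted. Summed levels of 12 of 12 B lineage markers were between 2762 and 11111 scaled RPKM in every group. Sdc1, which encodes CD138, was at 170 ± 14.2 in plasma Ctrl cells against 1.09 ± 0.313 in activated Ctrl cells.

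The cluster holds 9 annotated Akr1 genes within 560.2 kb, and 4 of them were in the expression table. In RefSeq on GRCm38.p6, the assembly that the mm10 build of the submitters' processing notes denotes, Akr1c13 (Entrez 27384) occupies chr13:4191168-4205604 on the forward strand. Akr1c12 (Entrez 622402) occupies chr13:4268172-4279399 on the reverse strand, 62.6 kb further along. Akr1e1 (Entrez 56043) occupies chr13:4591123-4609164 on the reverse strand, another 312 kb away at the far end of the cluster. Akr1c14 lies at the opposite end, at chr13:4048991-4090560 on the forward strand. Akr1c18, Akr1c19, Akr1c6, Akr1c20 and Akr1c21 lie between these genes and were not in the expression table, so only their sequences were used here.

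Akr1c12 and Akr1c13 are near copies of each other. Their coding sequences, taken from GENCODE M21 transcripts, were identical at 935 of 972 bases (96.2%). Akr1e1 was identical to Akr1c12 at 65.4% of aligned coding bases and to Akr1c13 at 64.5%. Of the 50-base words of the Akr1c12 transcript, 347 of 1212 (28.6%) also occurred in Akr1c13, and none of the shared words occurred in a further gene of the cluster. With 75-base words the share was 205 of 1187 (17.3%). For Akr1e1 the shares were 0 of 3414 and 0 of 3389. A read that falls in a shared stretch cannot be assigned to either Akr1c12 or Akr1c13 by its sequence, and how such reads were counted is not given in the sources used here, so the split between these 2 genes is uncertain. The longest coding stretch without any difference runs over 228 bases, coding positions 34 to 261 in exons 1 to 3 of 9. It is shown because reads within it fit both genes equally. It is spliced from chr13:4275832-4279323 on the reverse strand in Akr1c12 and from chr13:4191260-4194685 on the forward strand in Akr1c13 (GRCm38), and is given 5′ to 3′ without capitals, as no base differs.
Akr1c12 and Akr1c13, shared: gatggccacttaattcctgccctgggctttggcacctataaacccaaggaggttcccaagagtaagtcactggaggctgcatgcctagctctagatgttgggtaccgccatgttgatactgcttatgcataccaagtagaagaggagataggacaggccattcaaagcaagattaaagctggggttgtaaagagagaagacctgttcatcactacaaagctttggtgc

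The 60-base coding window in which the copies differ most, positions 370 to 429 in exon 4, holds 9 differing bases, given here in capitals. It is shown because reads across it separate the copies. It lies at chr13:4274365-4274424 on the reverse strand in Akr1c12 and at chr13:4196433-4196492 on the forward strand in Akr1c13 (GRCm38).
Akr1c12: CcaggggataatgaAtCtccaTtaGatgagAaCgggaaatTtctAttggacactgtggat
Akr1c13: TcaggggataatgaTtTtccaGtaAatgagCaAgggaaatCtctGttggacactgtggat

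The copies are also alike upstream of their start sites. These stretches are shown because both RNA levels were higher in activated and plasma KO than in Ctrl libraries. In naive libraries the copies did not move together, as KO replicate 3 had Akr1c13 at 12.5 and Akr1c12 at 0 scaled RPKM. Whether upstream likeness or shared reads have a part in these levels was not tested. The 250 bases before the start site of each gene in the RefSeq promoter table (GRCm38.p6) are given 5′ to 3′ in the direction of the gene. For Akr1c13 that start site lies inside the gene span given above, so the end of its window overlaps the span. They lie at chr13:4190937-4191186 on the forward strand for Akr1c13, at chr13:4279400-4279649 on the reverse strand for Akr1c12, and at chr13:4609165-4609414 on the reverse strand for Akr1e1. For Akr1c13 and Akr1c12 capitals mark the 11 differing bases among 246 aligned ones and the 4 bases in each without a counterpart. In Akr1c12 the latter are CTTT at the start, where the window edges are offset. In Akr1c13 they are AAC at the offset end and a single A inside the window, in tatttAaaac, which Akr1c12 lacks. The other 235 aligned bases (95.5%) are identical. For Akr1e1 capitals mark the motif CCAAT.
Akr1c13: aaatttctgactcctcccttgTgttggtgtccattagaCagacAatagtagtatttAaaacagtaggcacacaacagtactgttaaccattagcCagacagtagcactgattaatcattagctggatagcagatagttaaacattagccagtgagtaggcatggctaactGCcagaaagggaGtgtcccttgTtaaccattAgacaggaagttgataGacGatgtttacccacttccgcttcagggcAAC
Akr1c12: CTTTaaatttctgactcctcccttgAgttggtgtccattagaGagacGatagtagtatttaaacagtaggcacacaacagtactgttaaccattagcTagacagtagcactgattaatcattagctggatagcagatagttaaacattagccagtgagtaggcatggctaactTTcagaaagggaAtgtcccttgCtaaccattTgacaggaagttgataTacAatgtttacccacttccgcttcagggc
Akr1e1: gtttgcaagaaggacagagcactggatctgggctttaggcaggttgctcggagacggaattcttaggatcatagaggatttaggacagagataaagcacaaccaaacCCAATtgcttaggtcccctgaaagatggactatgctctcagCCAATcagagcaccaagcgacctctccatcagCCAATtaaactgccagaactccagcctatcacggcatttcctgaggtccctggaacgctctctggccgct

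In windows of 300 bases, 250 before and 50 after the start site, 3 motifs were searched on both strands. These were TGACNNNGC, the core of the antioxidant response element bound by NRF2, CCAAT and TATAAA, and no motif overlaps another in these letters. TGACNNNGC occurred in 12.4% of 32851 RefSeq promoter windows, CCAAT in 37.4% and TATAAA in 13.6%. None of the 3 occurred in the windows of Akr1c13 or Akr1c12. Akr1e1 held CCAAT 3 times, beginning 143, 102 and 70 bases before its start site, and neither other motif. The windows of Akr1c13 and Akr1c12 each held 2 CpG dinucleotides and that of Akr1e1 held 6, against a median of 7. Fewer CpGs were found in 14.1% of promoter windows for Akr1c13 and Akr1c12 and in 43.6% for Akr1e1. The GC content was 43.7%, 42.3% and 50.7% for Akr1c13, Akr1c12 and Akr1e1, against a median of 52.7%.

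Akr1c13 RNA was nearly missing from activated and plasma Ctrl cells and abundant in the KO cells of both types. In activated Ctrl replicates 1, 3 and 4 it was at 0.227, 0.487 and 0 scaled RPKM, and in activated KO replicates 1, 3 and 4 at 39.4, 36.3 and 41.3. The 3 KO libraries lay close together and far above all 3 Ctrl libraries. The means were 0.238 ± 0.244 and 39.0 ± 2.51 (SD, n = 3), a difference of 5.03 (SE 0.51) on the log2(scaled RPKM + 1) scale, and the ratio of the means was 164. In bulk RNA, a change in how many cells express a gene and a change in its RNA per cell cannot be told apart.

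The Ctrl level of Akr1c13 rests on very few reads. From its RPKM, the library depth and its transcript length, Akr1c13 had an estimated 2, 5 and 0 reads in the activated Ctrl libraries, 7 in all with an exact 95% Poisson interval of 2.81 to 14.4. The activated KO libraries held 582, 128 and 598 reads, the middle one being the library of lowest depth among activated cells. Such intervals cover counting error only. The size of the ratio thus depends on a handful of Ctrl reads, while the separation of the groups does not.

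Plasma cells showed a similar pattern for Akr1c13 at a lower KO level. In plasma Ctrl replicates 1, 3 and 4 it was at 0.760, 0.139 and 0 scaled RPKM, and in plasma KO replicates at 24.9, 25.6 and 22.5. The groups did not overlap. The means were 0.300 ± 0.405 and 24.4 ± 1.64, a log2 difference of 4.33 (SE 0.51) and a ratio of means of 81.2. Plasma Ctrl libraries held an estimated 6, 1 and 0 reads and plasma KO libraries 196, 160 and 139.

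Naive cells differed in that Ctrl libraries also held Akr1c13 RNA. In naive Ctrl replicates 1, 2 and 3 it was at 0, 8.29 and 2.69 scaled RPKM, and in naive KO replicates at 5.31, 8.22 and 12.5. The groups overlapped, since Ctrl replicate 2 was above 2 of the KO libraries. The log2 difference was 1.51 (SE 0.51). Without naive Ctrl replicate 2, the highest Ctrl library, it was 2.26, and without naive Ctrl replicate 1 it was 0.66. Without Ctrl replicate 2 the gene was called higher in naive KO cells. Fits without a single naive library called 884 to 2436 of all 12782 genes, against 269 higher and 657 lower in the main fit. Nothing is thus read from that call.

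Akr1c12 followed the same pattern at lower levels. In activated Ctrl replicates 1, 3 and 4 it was at 0.228, 0.390 and 0.224 scaled RPKM, and in activated KO replicates at 14.8, 12.5 and 19.3. In plasma Ctrl replicates it was at 0.254, 0.558 and 0.449 and in plasma KO replicates at 7.79, 10.6 and 7.45. In both cell types every KO library was above every Ctrl library. The log2 difference was 3.67 (SE 0.62) in activated and 2.75 (SE 0.62) in plasma cells, and the ratios of means were 55.4 and 20.5. Activated Ctrl libraries held an estimated 2, 4 and 2 Akr1c12 reads, 8 in all (exact 95% Poisson interval 3.45 to 15.8), and plasma Ctrl libraries 9 in all.

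In naive cells Akr1c12 varied within both genotypes. Ctrl replicates 1, 2 and 3 were at 3.87, 3.67 and 0.621 scaled RPKM and KO replicates at 2.25, 13.5 and 0. The highest and the lowest library were both KO, and 4 of 9 pairs of a KO and a Ctrl library were higher in KO. The log2 difference was 0.12 (SE 0.62), and it ran from -0.89 to 1.05 when single naive libraries were left out.

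Akr1e1, the more distant relative, was expressed in every group and differed less. In activated Ctrl replicates 1, 3 and 4 it was at 6.37, 5.53 and 6.75 scaled RPKM, and in activated KO replicates at 14.7, 12.5 and 12.7. In plasma Ctrl replicates it was at 2.10, 1.40 and 2.69, and in plasma KO replicates at 7.37, 6.46 and 8.45. KO libraries were above Ctrl libraries in both cell types without overlap. The log2 difference was 0.99 (SE 0.22) in activated and 1.48 (SE 0.22) in plasma cells, and the ratios of means were 2.14 and 3.60. These levels rest on more reads, with an estimated 158 to 169 per activated Ctrl library and 28 to 50 per plasma Ctrl library. In naive cells Ctrl replicates 1, 2 and 3 were at 3.62, 6.93 and 4.16 and KO replicates at 6.16, 4.52 and 5.64, which overlapped, with a log2 difference of 0.16 (SE 0.22).

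**Figure D1:**
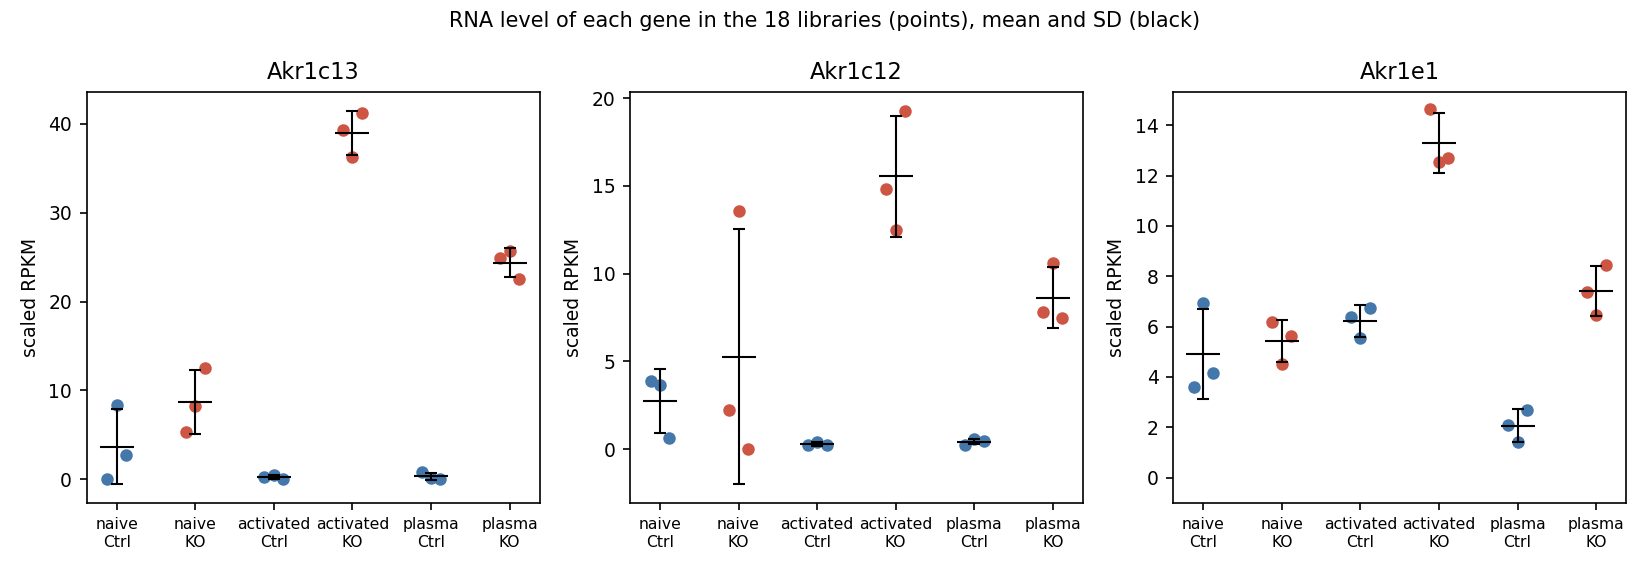
Scaled RPKM (linear axis) of Akr1c13, Akr1c12 and Akr1e1 in each of the 18 libraries, by cell type and genotype. Points are libraries, black marks and bars are the mean and SD of 3 libraries. The activated KO libraries sit at 36.3 to 41.3 for Akr1c13 and 12.5 to 19.3 for Akr1c12, while every activated or plasma Ctrl library of these genes is under 1.

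By limma over all 18 libraries, with Benjamini-Hochberg adjustment over 12782 genes and a threshold of 0.05, 3 of 3 members were called higher in activated KO and 3 of 3 in plasma KO cells. Over all genes 0.43% were called higher in activated and 0.446% in plasma KO cells. In naive cells 0 of 3 were called, where 2.1% of all genes were called higher. Lower calls made up 1.36% of all genes in activated, 0.172% in plasma and 5.14% in naive KO cells. As the genes were chosen on these contrasts, nothing is read from these counts. The groups of all 3 genes were also separate without overlap in activated cells, as for 15.3% of all genes in the higher direction, and in plasma cells, as for 11.2%. In naive cells the groups of all 3 genes overlapped, whereas those of 4.32% of all genes were separate in the higher and 7.84% in the lower direction. Without any single library of the 6 activated ones, Akr1e1 was no longer called and the count was 2 of 3. Without any single library of the 6 plasma cell ones, Akr1c12 was no longer called and the count was 2 of 3. The activated count was also 2 of 3 with a pseudocount of 0.1, quantile normalization or the replicate block, where Akr1e1 was lost. The plasma count was 2 of 3 with a pseudocount of 0.1, no filter or RPKM as deposited, where Akr1c12 was lost, and 1 of 3 with quantile normalization, where Akr1c13 remained.

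Among all tested genes ordered from the highest to the lowest log2 difference, Akr1c13 was at rank 1 in activated and 2 in plasma cells, Akr1c12 at rank 2 and 8, and Akr1e1 at rank 54 and 34. In terms of expression level, Akr1c13 was above 8.97% of tested genes in activated Ctrl and above 83.3% in activated KO cells, and above 13.3% and 75.2% in plasma cells. Akr1c12 moved from above 10.8% to above 65.6% in activated and from above 16.9% to above 54% in plasma cells. Akr1e1 moved from above 46.1% to above 62.1% and from above 31.8% to above 50.7%. The level of Akr1c13 and Akr1c12 in these KO cells thus passed that of most tested genes.

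The ordering of the 6 group means differed between the copies and Akr1e1. For Akr1c13 the means fell from activated KO through plasma KO (24.4), naive KO (8.67) and naive Ctrl (3.66) to plasma Ctrl (0.300) and activated Ctrl (0.238). Activated KO, plasma KO and naive KO did not overlap with their neighbours from above, whereas naive KO overlapped with naive Ctrl, and the 3 Ctrl groups all included a library at 0. For Akr1c12 the order of the means was the same, from 15.5 in activated KO to 0.281 in activated Ctrl, but naive KO, at 5.26 ± 7.26, spanned from 0 to 13.5 and overlapped with all other groups. For Akr1e1 activated KO (13.3 ± 1.18) stood above every other group, and plasma Ctrl (2.06 ± 0.646) below. Plasma KO (7.43 ± 0.995), activated Ctrl (6.22 ± 0.622), naive KO (5.44 ± 0.840) and naive Ctrl (4.90 ± 1.78) each overlapped with the next.

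Akr1c12 was below Akr1c13 in every activated and plasma KO library. The ratio of Akr1c12 to Akr1c13, both per length of gene, was 0.377, 0.344 and 0.467 in the activated KO libraries and 0.313, 0.414 and 0.331 in the plasma KO libraries, so the ranges of the cell types overlapped. Akr1c13 supplied 56.4% to 59.2% of the summed RPKM of the 3 genes in activated KO and 58.6% to 62.2% in plasma KO libraries. In activated Ctrl libraries Akr1e1 supplied 86.3% to 96.8% of a far smaller sum.

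**Figure D2:**
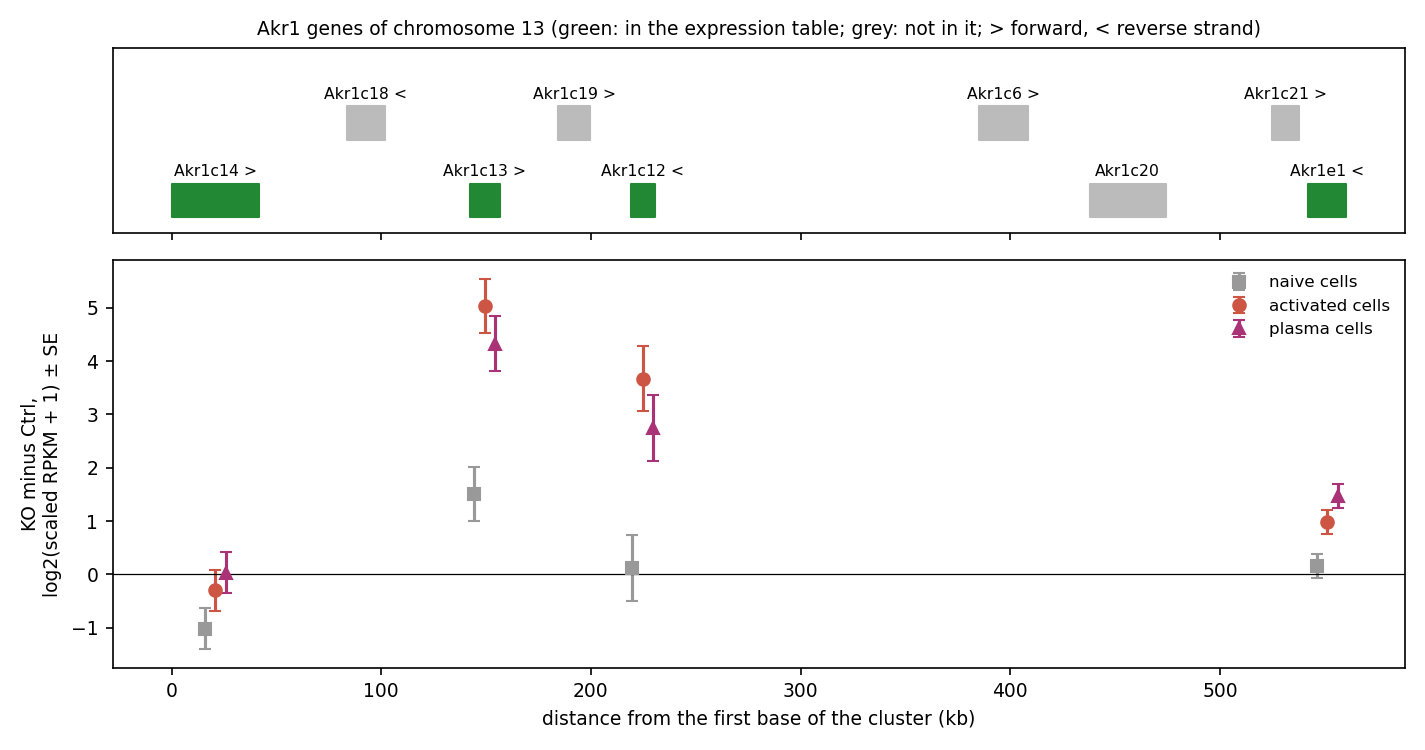
Top, Akr1 genes of the chromosome 13 cluster drawn to scale, green where the expression table holds the gene. Bottom, KO minus Ctrl difference of each such gene on the log2(scaled RPKM + 1) scale with its SE, by cell type. Akr1c13 and Akr1c12 lie near 5.03 and 3.67 in activated cells, Akr1e1 near 0.99, and Akr1c14 at -0.30.

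The difference of the KO effect between plasma and activated cells was -0.70 (SE 0.72) for Akr1c13, -0.92 (SE 0.87) for Akr1c12 and 0.49 (SE 0.32) for Akr1e1 on the log2 scale. None of the 3 was called, among 0.156% of all genes called higher and 0 lower, so these data do not separate the size of the effect between activated and plasma cells. With library weights the Akr1c12 difference was called, in the same direction. Against naive cells the effect in activated cells differed by 3.52 (SE 0.72) for Akr1c13, 3.55 (SE 0.87) for Akr1c12 and 0.83 (SE 0.32) for Akr1e1, and 2 of 3 were called, where 1.36% of all genes were called higher and 1.27% lower. The effect in plasma cells differed from that in naive cells by 2.82 (SE 0.72), 2.63 (SE 0.87) and 1.32 (SE 0.32) in the same order, and only Akr1e1 was called, where 0.947% were called higher and 0.438% lower. These differences use the KO contrasts the genes were chosen on and are a description.

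The Ctrl libraries alone show the levels across the cell types without the knockout. As low values in activated and plasma Ctrl cells entered the KO differences on which the genes were chosen, these steps are also a description, with no p for the 3 genes. Akr1c13 was at 3.66 ± 4.23 scaled RPKM in naive and 0.238 ± 0.244 in activated Ctrl cells (log2 difference -1.41, SE 0.51). It was higher in the activated library in 2 of 9 pairs of libraries, both against the naive library at 0. Without single libraries the difference ran from -2.26 (without naive Ctrl replicate 1) to -0.65 (without naive Ctrl replicate 2).

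Akr1c12 was at 2.72 ± 1.82 in naive and 0.281 ± 0.0949 in activated Ctrl cells, a difference of -1.38 (SE 0.62), and 0 of 9 pairs were higher in activated cells. Groups were separate in the lower direction for 41.4% and in the higher direction for 20.4% of all genes in this step. Akr1e1 was at 4.90 ± 1.78 and 6.22 ± 0.622, with a difference of 0.33 (SE 0.22), and these groups overlapped. By limma 19% of all genes were called higher and 39.4% lower in activated than in naive Ctrl cells, and the median over all genes was -0.29.

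Akr1e1 was at 6.22 ± 0.622 scaled RPKM in activated and 2.06 ± 0.646 in plasma Ctrl cells (log2 difference -1.26, SE 0.22), with 0 of 9 pairs higher in plasma cells. Groups were separate in the lower direction for 29.9% and in the higher direction for 26.9% of all genes. Without single libraries the Akr1e1 difference ran from -1.40 to -1.09. Akr1c13 and Akr1c12 stayed under 1 scaled RPKM in every library of both groups, with differences of 0.05 (SE 0.51) and 0.15 (SE 0.62). At an estimated 7 to 9 reads per group, a fall or a small change between these Ctrl groups was not detectable. Over all genes, 16.1% were called higher and 16.8% lower in this step.

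Akr1c14, the only other gene of the cluster in the table, encodes a hydroxysteroid dehydrogenase and did not share the pattern. It was at 0.510 ± 0.494 in activated Ctrl and 0.193 ± 0.213 in activated KO cells (log2 difference -0.30, SE 0.38) and at 0.197 ± 0.288 and 0.216 ± 0.246 in plasma cells (0.03, SE 0.38), and its groups overlapped in both. The limma adjusted p was 1.00 in both contrasts, and 0.111 in naive cells, where it was at 2.40 ± 1.19 and 0.880 ± 1.35. In the fit with library weights Akr1c14 was called lower in activated KO cells (-0.58, adjusted p = 0.0393).

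The nearest tested genes on each side of the cluster did not pass the limma test in any KO contrast. On the left, Net1, an exchange factor for small GTPases, lies 131 kb from the cluster, Asb13, an adaptor of ubiquitin ligases, 395 kb, and Tasor2, a relative of a HUSH silencing complex subunit, 436 kb. Net1 was at 10.6 ± 2.17 in activated Ctrl and 14.7 ± 1.43 in activated KO cells (log2 difference 0.45, SE 0.23, limma adjusted p = 0.56) and at 5.79 ± 0.729 and 8.06 ± 2.13 in plasma cells (0.39). Asb13 differed by 0.002 in activated and 0.44 in plasma cells, and Tasor2 by 0.21 and 0.17. On the right the nearest tested genes are far away. Klf6, a zinc finger transcription factor at 1252 kb, differed by -0.40 and 0.44, Pitrm1, a mitochondrial peptidase at 1939 kb, by 0.35 and 0.38, and Pfkp, a phosphofructokinase at 1971 kb, by 0.02 and 0.14.

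Within 1000 kb of the cluster 5 other genes were tested, namely Akr1c14, Gdi2, Tasor2, Asb13 and Net1. By limma, 0 of 5 were called in any KO contrast, and at an unadjusted p under 0.05 the count was 0 of 5 in activated and in plasma cells, and 1 higher and 1 lower in naive cells. In naive KO cells Asb13 was called higher without Ctrl replicate 2 (adjusted p = 0.0471) and Akr1c14 lower without KO replicate 2 (adjusted p = 0.00301). Fits without a single naive library called 884 to 2436 of all 12782 genes, so nothing is read from these calls. The median log2 difference of the 5 genes was 0.08 in activated and 0.17 in plasma cells, against -0.02 and -0.004 over all tested genes. With library weights 1 was called higher, Net1 (0.44, limma adjusted p = 0.0305), and 1 lower, Akr1c14, in activated cells. That fit called 2446 of all 12782 genes in activated cells.

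Other aldo-keto reductases were next compared, using a list of 17 family members that leaves out the 3 genes. Of these 9 were in the table, and 1 of them, Akr1c14, lies in the cluster. By limma, 0 of 9 were called in activated and 0 of 9 in plasma KO cells, and at an unadjusted p under 0.05 there were 0 in activated cells and 1 in plasma cells, which was higher. Their median log2 difference was 0.02 and -0.01, against -0.02 and -0.004 over all tested genes. Akr1a1, the broad-range aldehyde reductase, was at 156 in activated Ctrl and 152 in activated KO cells and at 252 and 250 in plasma cells. Akr1b3, the aldose reductase of the polyol pathway, was at 175 and 177 in activated and at 167 and 203 in plasma cells. Akr1b10 was at 7.38 and 5.81, and at 14.6 and 12.5. Akr7a5, an aflatoxin aldehyde reductase, was at 14.2 and 19.6, and at 11.9 and 11.8. Kcnab2, a potassium channel beta subunit with the reductase fold, was at 28.8 and 32.7, and at 42.4 and 42.3.

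The remaining family members, Akr1b7, Akr1cl, Akr1c14 and Kcnab1, had means under 1 scaled RPKM in all activated and plasma groups. In the fit of the libraries compared alone, Akr7a5 was called higher in activated cells (0.44, adjusted p = 0.0282) and Akr1b3 in plasma cells (0.29, adjusted p = 0.0434). With library weights 1 was called higher (Akr7a5) and 2 lower (Akr1b10 and Akr1c14) in activated cells, and Akr1b3 higher in plasma cells. Both fits also raised the count over all genes, with library weights to 2446 of 12782 in activated and 1640 in plasma cells. In naive KO cells 1 member rose, Akr1b3, from 78.6 to 109 scaled RPKM (log2 difference 0.46, limma adjusted p = 0.013), and 1 fell, Akr1b7, from 4.83 to 0.818 (-1.62, adjusted p = 0.00448). In the same contrast 2.1% of all genes were called higher and 5.14% lower. Neither naive call held in the fit of the naive libraries alone or with library weights. As these fits called 0 of all genes in naive KO cells, the losses are not particular to Akr1b3 and Akr1b7. The Akr1b7 call was also lost with a pseudocount of 0.1. Across the Ctrl step from naive to activated cells 3 of the 9 rose and 6 fell. Over all genes 19% were called higher and 39.4% lower in this step. Of the 9, Akr1a1 (0.90, limma adjusted p = 2.29e-07) and Akr1b3 (1.14, 6.72e-08) went upward and Akr1b10 (-1.45, 1.36e-05) downward.

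**Figure D3:**
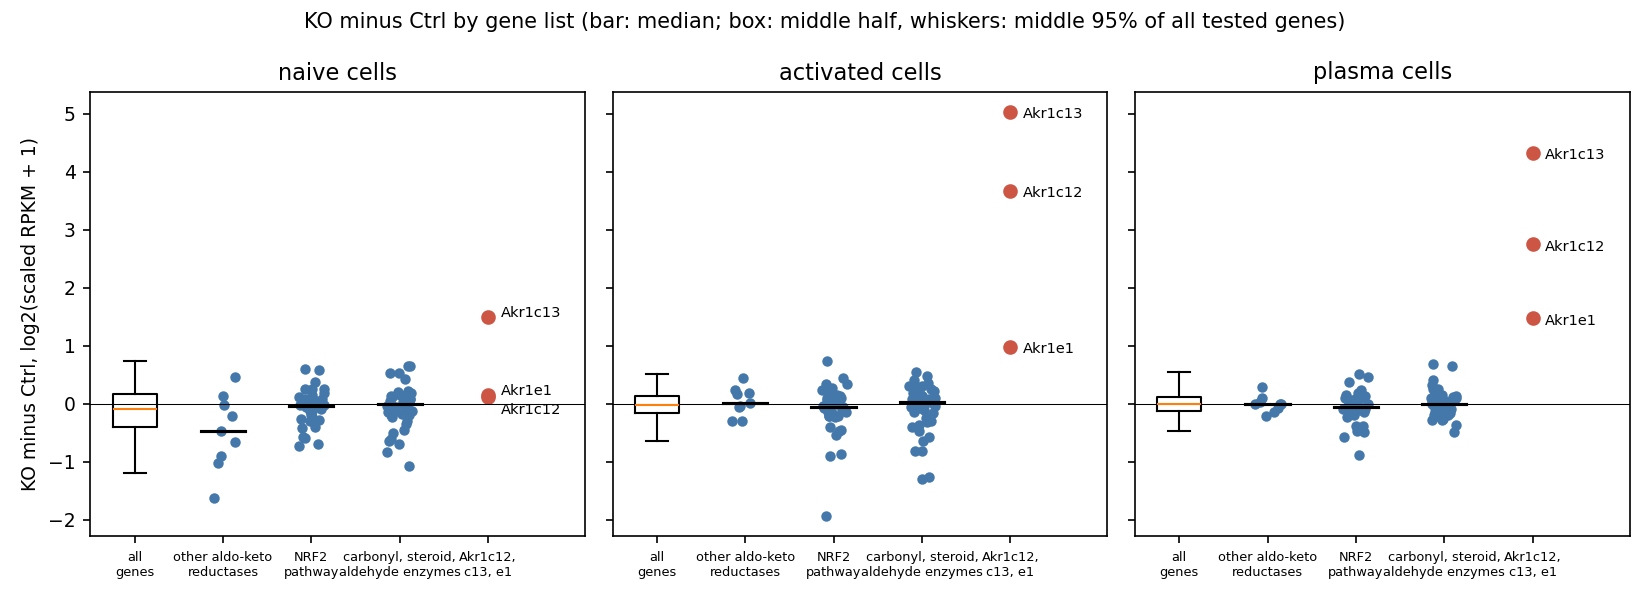
KO minus Ctrl difference on the log2(scaled RPKM + 1) scale in naive, activated and plasma cells. Boxes and whiskers show all tested genes, blue points single genes of 3 lists with a black bar at the list's median, and red points the 3 Akr1 genes. List medians lie between -0.06 and 0.03 in activated and plasma cells, and the red points between 0.99 and 5.03.

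NRF2, encoded by Nfe2l2, is the transcription factor of the oxidative stress response, and AKR1C genes are among its known targets in other cells. Of a list of 45 NRF2 pathway genes 37 were tested. By limma, 0 rose and 3 fell in activated KO cells (at an unadjusted p under 0.05, 1 and 5), and 0 were called in plasma KO cells (0 and 5) or naive KO cells (3 and 2). Over all genes 0.43% were called higher and 1.36% lower in activated KO cells. The shares were 0.446% and 0.172% in plasma and 2.1% and 5.14% in naive KO cells. No share over all genes is given for the unadjusted counts, so nothing is read from them. The list medians were -0.05, -0.06 and -0.03 in activated, plasma and naive cells, against -0.02, -0.004 and -0.09 over all tested genes. Ephx1, a microsomal epoxide hydrolase, fell from 20.1 ± 6.69 to 4.48 ± 1.50 scaled RPKM in activated KO cells (log2 difference -1.93, SE 0.21, limma adjusted p = 4.21e-05). Ftl1, the ferritin light chain, whose reads could be shared with processed copies, fell from 909 ± 49.5 to 622 ± 19.2 (-0.54, SE 0.07, adjusted p = 3.03e-04), and Sqstm1, an autophagy receptor, from 134 ± 2.75 to 98.3 ± 1.97 (-0.45, SE 0.10, adjusted p = 0.0326). The Sqstm1 call was lost without any single activated library and with the replicate block, with an adjusted p of up to 0.140 over the alternatives. Of the 37 genes, 6 were higher and 9 lower in activated KO cells without overlap of the groups, and 4 were higher and 9 lower in plasma cells, beside 15.3%, 16%, 11.2% and 13.6% of all genes. Gsr, glutathione reductase, was at 4.40 to 5.56 in activated Ctrl and 8.30 to 9.75 in activated KO libraries (log2 difference 0.73, limma adjusted p = 0.327). Gclc and Gclm, the subunits of glutamate-cysteine ligase, were at 13.3 to 17.1 and 18.1 to 19.1 (0.34, 0.81) and at 13.1 to 16.1 and 17.8 to 20.9 (0.34, adjusted p = 1.00). Nqo1 was at 0.710 ± 0.0957 and 0.518 ± 0.449 and Slc7a11 at 0.702 ± 0.162 and 0.611 ± 0.0987 in activated Ctrl and KO cells, and Nfe2l2 itself was at 13.2 ± 0.203 and 11.5 ± 0.833. Fitting only the libraries compared called 2 higher and 5 lower in activated and 1 higher and 3 lower in plasma cells. With library weights 6 were called higher and 7 lower in activated cells, Gsr, Gclc and Gclm among the higher, and 4 higher and 6 lower in plasma cells. Calls rose over all genes too, as the fit with library weights called 2446 of 12782 in activated and 1640 in plasma cells. Fitting only the libraries compared also raised the count over all genes, so nothing is read from these list counts.

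Other enzymes of carbonyl, steroid and aldehyde metabolism gave a list of 50 genes, of which 43 were tested. By limma, 0 rose and 3 fell in activated KO cells (unadjusted, 2 and 6), 0 were called in plasma KO cells (0 and 0), and 2 rose in naive KO cells. Over all genes 0.43% were called higher and 1.36% lower in activated KO cells. The shares were 0.446% and 0.172% in plasma and 2.1% and 5.14% in naive KO cells. No share over all genes is given for the unadjusted counts, so nothing is read from them. The list medians were 0.03, -0.01 and -0.002 in activated, plasma and naive cells, against -0.02, -0.004 and -0.09 over all tested genes. Hsd11b1, which regenerates active glucocorticoid, fell from 9.07 ± 2.16 to 3.12 ± 1.07 scaled RPKM in activated KO cells (log2 difference -1.30, SE 0.27, limma adjusted p = 0.013). Aldh2, the mitochondrial acetaldehyde dehydrogenase, fell from 69.0 ± 8.33 to 38.9 ± 6.08 (-0.81, SE 0.18, adjusted p = 0.0228), and Blvrb, a biliverdin and flavin reductase, from 55.3 ± 1.03 to 31.4 ± 5.22 (-0.81, SE 0.19, adjusted p = 0.034). The Hsd11b1 call was lost with the replicate block and without activated Ctrl replicate 3 or 4 or activated KO replicate 3 (adjusted p up to 0.108). The Aldh2 call was lost without activated Ctrl replicate 1 or 4 or activated KO replicate 1 or 3 (up to 0.159). The Blvrb call was lost with a pseudocount of 0.1 and without any single activated library (up to 0.237). The 2 that rose in naive cells were Dhrs7 (0.66, limma adjusted p = 0.0192) and Aldh4a1 (0.66, adjusted p = 0.0406). Both calls were lost with only the libraries compared, library weights, the replicate block and without naive KO replicate 1. Fits of only the libraries compared and with library weights called 0 of all genes in naive KO cells. That of Aldh4a1 was also lost with a pseudocount of 0.1 and without naive Ctrl replicate 1 or 3 or naive KO replicate 3. Fitting only the libraries compared called 1 higher and 7 lower in activated and 2 higher in plasma cells. With library weights 5 were called higher and 9 lower in activated cells, and 4 higher and 1 lower in plasma cells. Both fits raised the count over all genes as well, with library weights to 2446 of 12782 in activated and 1640 in plasma cells.

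Genes whose 6 group means followed those of each Akr1 gene most closely were ranked by the root mean square difference of centred log2 group means, among genes that reached 5 scaled RPKM in 1 group. The ranking is a description over 6 group means of these 18 libraries. For Akr1c13, Akr1c12 was nearer (0.72) than any other gene, followed by Afp (0.95), Gtsf1 (1.07), AI427809 (1.28), Wfdc15a (1.30) and BC049715 (1.33). Akr1c12 was closest to Afp (0.56), Gtsf1 (0.65), Lrp11 (0.73), AI427809 (0.78) and BC049715 (0.79), with Akr1c13 at 0.72 between Gtsf1 and Lrp11. Afp, which encodes the fetal liver protein alpha-fetoprotein, was at 1.31 ± 0.389 scaled RPKM in activated Ctrl and 17.4 ± 1.03 in activated KO cells, and at 1.65 ± 0.552 and 33.8 ± 3.87 in plasma cells. Unlike Akr1c13, its mean was higher in plasma KO than in activated KO cells. Gtsf1, which acts in the transposon-silencing piRNA pathway of germ cells, was at 0.525 ± 0.420 and 4.92 ± 0.501 in activated and at 0.255 ± 0.442 and 5.32 ± 1.65 in plasma cells.

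Akr1e1 had different nearest genes. These were Slc6a13 (0.23), a GABA and taurine transporter, Acot7 (0.30), an acyl-CoA thioesterase, Nup205 (0.33), a nuclear pore subunit, and the tRNA methylation genes Trdmt1 (0.34) and Wdr4 (0.34). None of Acot7, Nup205, Trdmt1 and Wdr4 was called by limma in a KO contrast. Slc6a13 was called higher in plasma KO cells only (limma adjusted p = 0.0292). The measure depends on the size of the changes as well as on their order over the groups. By the same measure Akr1c12 was 0.90 and Akr1c13 was 1.51 from Akr1e1, at ranks 5580 and 8352 among all such genes. Counted from the copies, Akr1e1 was at rank 7 for Akr1c12 and at rank 12 for Akr1c13. Slc6a13 was at 1.99 ± 0.102 scaled RPKM in activated Ctrl and 5.69 ± 0.321 in activated KO cells and at 0.176 ± 0.126 and 2.91 ± 0.650 in plasma cells, so it too was lowest in plasma Ctrl cells.

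**Figure D4:**
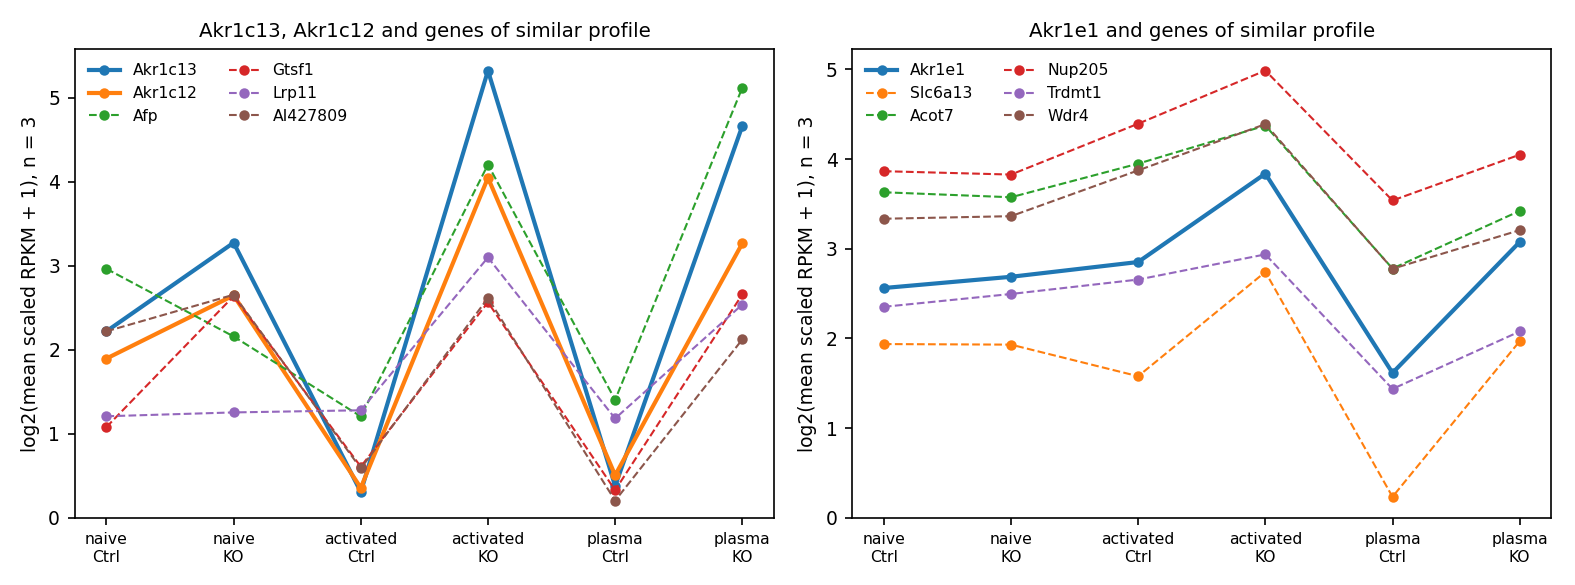
Group means as log2(mean scaled RPKM + 1) in the 6 groups for Akr1c13, Akr1c12 and 4 genes of similar profile (left) and for Akr1e1 and 5 genes of similar profile (right); points are means of 3 libraries, lines only join the points of a gene. Akr1c13 and Akr1c12 are lowest in the activated and plasma Ctrl groups, and Akr1e1 is lowest in plasma Ctrl cells.

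**Figure D5:**
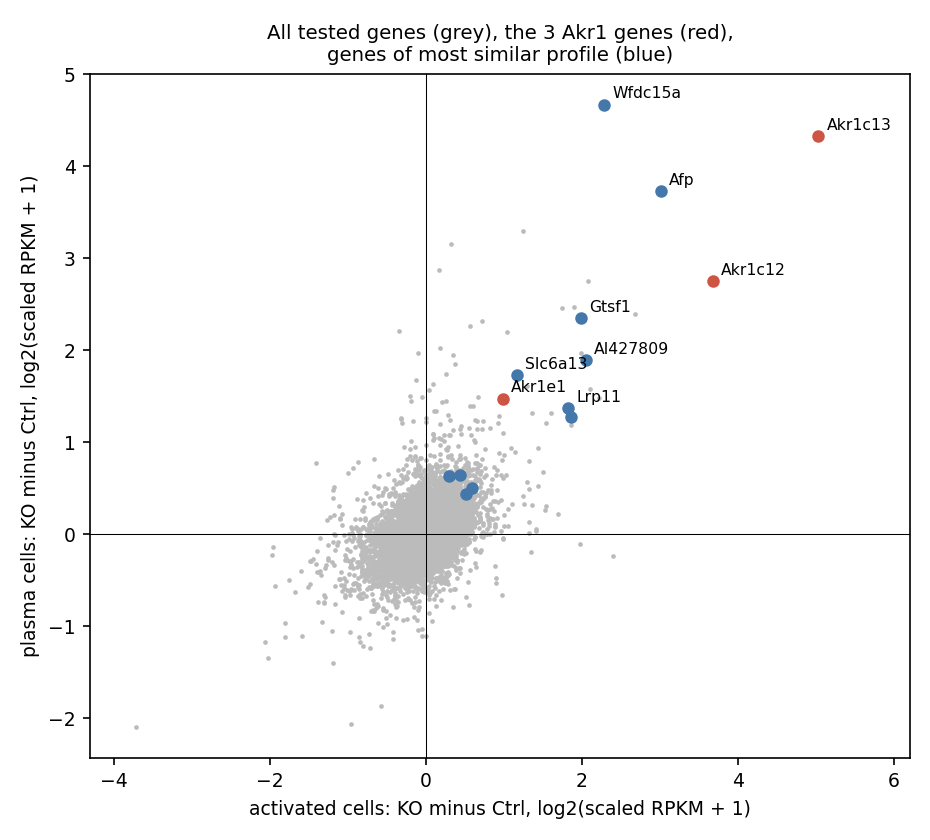
KO minus Ctrl difference of each tested gene in activated cells (horizontal) and plasma cells (vertical), both on the log2(scaled RPKM + 1) scale. Akr1c13 lies at 5.03 and 4.33, Akr1c12 at 3.67 and 2.75 and Akr1e1 at 0.99 and 1.48, and blue points are the genes of most similar profile.

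Markers of other cell types were summed in each library, since some of them moved with the KO. Erythroid markers (2 of 9 in the table, Hba-a2 and Hbb-bs) summed to 3.99 to 4.94 scaled RPKM in activated Ctrl and 14.5 to 22.8 in activated KO libraries. Between these groups Hbb-bs differed by 1.99 (SE 0.68) and Hba-a2 by -0.32 (SE 0.68) on the log2 scale. The rise of the sum was thus that of Hbb-bs, and neither gene was called by limma. In plasma Ctrl libraries the sum was 0 to 0.758, and in plasma KO replicates 1, 3 and 4 it was 1.17, 0.629 and 45.0. Akr1c13 was at 24.9, 25.6 and 22.5 in the same 3 plasma KO libraries. In naive Ctrl libraries the erythroid sum was 282 to 370 and Akr1c13 was at 0 to 8.29. Whether erythroid RNA has a part in the Akr1c13 values was not tested.

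Hepatocyte markers (5 of 16 in the table), relevant because AKR1C enzymes and Afp are made by liver, summed to 1.24 to 4.34 scaled RPKM in activated Ctrl and 2.09 to 3.72 in activated KO libraries, and to 6.13 to 6.79 and 5.58 to 7.55 in plasma cells, so genotypes overlapped. Monocyte and macrophage markers (8 of 12) summed to 31.7 to 35.9 and 26.4 to 58.9 in activated and to 16.1 to 30.4 and 20.9 to 62.3 in plasma Ctrl and KO libraries. Neutrophil (1 of 8), mast cell and basophil (3 of 9) and platelet (4 of 7) sums in activated and plasma libraries reached at most 1.62, 3.66 and 5.68. T cell markers (4 of 9 in the table, Cd2, Cd3e, Cd4 and Lck) summed to 119 to 149 in activated Ctrl and 87.6 to 115 in activated KO libraries, and to 19.7 to 27.4 and 24.2 to 30.2 in plasma cells. Among them Cd3e, a subunit of the T cell receptor complex, rose from 0.0760 ± 0.0661 in plasma Ctrl to 8.63 ± 1.48 scaled RPKM in plasma KO cells (log2 difference 3.15, SE 0.47, limma adjusted p = 0.00125), and thus moved with the Akr1 genes there. Cd4 was at 0.0639 and 0.0554 and Lck at 1.57 and 1.53 in the same groups. Most of the T cell sum in plasma Ctrl libraries was thus Cd2, and the summed levels do not show the rise of Cd3e. No marker in the table was at 0 in every library of a group. B lineage markers summed to less in activated KO (2762 to 2990) than in activated Ctrl libraries (4126 to 4557). Jchain (log2 difference -1.36), Xbp1 (-0.96), Cd79b (-0.58) and Cd79a (-0.56) were called lower there by limma. The other B lineage markers were not called, with differences from -0.85 for Prdm1 to 0.12 for Tnfrsf17. The part of these shifts in the Akr1 values was not tested.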

How the data were processed

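SMART-seq complementary DNA, made from total RNA per the labels, was sequenced as NexteraXT libraries, 18 in number and 3 in each of 6 groups taken from titles and genotype labels. The authors deposited 1 table of RPKM for 12960 genes, and 0 of its value columns went unused. Per the submitters' processing notes, STAR and mm10 were used. No version, gene model or read counter was given in the sources used here. Entrez identifiers matched RefSeq for 12946 genes, and 24 symbols that were empty or turned into dates were set back from it.

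Each library's RPKM were scaled by median of ratios (factors of 0.911 to 1.08, over 8012 genes above 1 RPKM everywhere). Genes with a mean of at least 1 scaled RPKM in 1 group were tested, 12782 of them, leaving out 178. log2(scaled RPKM + 1), which understates changes of low genes, was fitted with group means over all 18 libraries in limma 3.58.1 under R 4.3.3 (lmFit, eBayes with trend, two-sided, Benjamini-Hochberg). The code was tested on simulated data. The members, lists and alternatives were chosen with earlier results of these data known, so KO contrasts and Ctrl steps of the 3 genes, which share libraries, are a description, while other genes were tested. Named genes were the members, every other aldo-keto reductase in the table, up to 4 called genes per list in activated and 2 in plasma KO contrasts, the 3 nearest tested genes on each side of the cluster, the 5 genes of most similar profile per member, and Ehmt2; Nfe2l2, Nqo1, Slc7a11, Gsr, Gclc, Gclm, Cd3e, Sdc1 and the genes called in naive cells or only in other fits were added after their values were seen.

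Depth was estimated from RPKM steps of 1041 genes with 1 transcript, each step being 1 read. Each depth was chosen as the one that brought low values nearest to whole reads. At that depth 50.0% to 71.9% of low values lay within 0.1 of a whole read. The 20% that holds by chance is for a depth fixed beforehand, so the comparison does not test these depths. The naive Ctrl libraries had 40 to 86 such values. RPKM steps depend on gene length, so read counts were not recovered for a count test. Sequences and promoter windows came from RefSeq GRCm38.p6 and GENCODE M21 with Biopython 1.88. Python 3.11.15, numpy 2.4.6, pandas 2.3.3, scipy 1.17.1 and matplotlib 3.10.9 were used. Alternatives were a pseudocount of 0.1, no filter, a filter at 5 RPKM, RPKM as deposited, quantile normalization, only the libraries compared, library weights, the replicate number as a block and leaving out single libraries. The locus that carries Cre and its expression are not reported here.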

Additional observations from a re-analysis of the deposited data

Results flagged for a closer look

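The size of the KO effect was compared between cell types in 9 contrasts, 3 for each gene, of which 3 passed the adjusted threshold of limma. The contrasts with naive cells were added after the data were seen, and all rest on KO differences on which the genes were chosen, so they are a description. For Akr1c12 the effect in activated cells minus that in naive cells was 3.55 (SE 0.87) on the log2(scaled RPKM + 1) scale, and for Akr1c13 it was 3.52 (SE 0.72). Both passed the adjusted threshold, which 1.36% of all genes did in the higher direction. For Akr1e1 the effect in plasma cells minus that in naive cells was 1.32 (SE 0.32) and passed it, as did 0.947% of all genes in the higher direction.

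The Akr1c12 value did not pass with a pseudocount of 0.1 (5.95), quantile normalization (2.90) or only the libraries compared, without any single activated library, or without naive Ctrl replicate 1 (3.28) or naive KO replicate 1 (3.48). It ran from 2.63 to 4.56 without single libraries. The Akr1c13 value did not pass with a pseudocount of 0.1 (4.55), quantile normalization (3.01), only the libraries compared, library weights (3.78) or without activated Ctrl replicate 4 (3.38), and ran from 2.77 to 4.37 without single libraries. The Akr1e1 value did not pass with a pseudocount of 0.1 (1.64), quantile normalization (0.81), RPKM as deposited (1.33), only the libraries compared, library weights (1.30) or the replicate block. It was also lost without any single plasma cell library other than plasma Ctrl replicate 4 (1.15 to 1.40 where it was lost). All 3 values share the naive libraries, whose estimated depth reached 4060000 reads at most.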

How the results depend on the processing

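The KO differences of Akr1c13, Akr1c12 and Akr1e1 in activated and plasma cells were above 0 under every alternative and every left-out library. In activated cells they ranged over the alternatives from 4.77 to 7.19, 3.37 to 5.37 and 0.94 to 1.08, and in plasma cells from 4.03 to 6.48, 2.40 to 4.10 and 1.23 to 1.84, each time lowest with quantile normalization and highest with a pseudocount of 0.1. In naive cells the Akr1c12 difference, never called, was -0.58 with that pseudocount and -0.12 with library weights. From naive to activated Ctrl cells the difference ran over the alternatives from -2.31 to -0.88 for Akr1c13, from -2.57 to -0.67 for Akr1c12 and from 0.29 to 0.78 for Akr1e1. Quantile normalization moved the median of all genes in this step by 0.26, and RPKM as deposited moved that from activated to plasma cells by -0.11.

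Counts of called genes moved more. The naive KO count of 926 was 436 with a pseudocount of 0.1, 471 with the filter at 5 RPKM, 0 with only the libraries compared, 0 with library weights, 487 with the replicate block, and 884 to 2436 without single libraries (1706 without naive Ctrl replicate 2, 2436 without naive KO replicate 2). The activated KO count of 229 was 1442 with only the libraries compared, 2446 with library weights and 90 to 164 without single libraries. The plasma KO count of 79 was 655, 1640 and 46 to 53 in the same order, and 50 with the replicate block. The Ctrl naive to activated count of 7459 was 4954 with the filter at 5 RPKM, and the Ctrl activated to plasma count of 4198 was 6430 with only the libraries compared and 7110 with library weights. The count of 20 for the effect in plasma minus activated cells was 208, 638, 8 with the replicate block, and 9 to 16 without single libraries. The cause was not tested. Quantile normalization moved the higher share from 29% to 52.8% of calls in naive KO cells and from 32.5% to 49.2% in the naive to activated step, and RPKM as deposited from 49% to 34.1% in the activated to plasma step. Replicate numbers gave no clear pairing of Ctrl and KO libraries in naive and activated cells. Deviations of same-numbered Ctrl and KO libraries correlated at -0.188 to -0.0009 in naive, -0.212 to 0.0701 in activated and 0.0681 to 0.312 in plasma cells. In plasma cells these were all positive, but Ctrl replicate 1 correlated more with KO replicate 3 (0.0944) than with KO replicate 1 (0.0681). Pairing between activated and plasma libraries, which share their replicate numbers, was not examined. Depth limits the Ctrl levels of Akr1c12 and Akr1c13, each under 10 estimated reads per activated or plasma group.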
